A study of Mus musculus with 19 samples.

Results

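The receptors described here were chosen by name and not by a rule on measured values, though earlier results of these data were known. They were the 7 genes Il7r, Il2rg, Il2rb, Il4ra, Il21r, Il6ra and Il6st of the 28692 gene features, and CD127, the antibody against the protein of Il7r, 1 of the 111 antibodies counted in every lane. All 7 genes and the antibody were present in all 19 lanes. The antibodies CD122 and CD25, against the proteins of Il2rb and Il2ra, are given beside them.

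Single thymocytes of 17 female mice aged 4 to 8 weeks were measured by CITE-seq, which counts the RNA of a cell together with DNA tags carried by antibodies bound to its surface. In 6 CD4-fated mice, 2 each of AND, OT-II and MHCI-/-, selection could proceed mainly on MHC class II, and in 6 CD8-fated mice, 2 each of F5, OT-I and MHCII-/-, mainly on MHC class I. The other 5 mice were wild-type B6. The study asked how the lineages diverge as thymocytes are positively selected. The comparison here is of receptor RNA and protein between the lineages within bins of a rebuilt order of cells. The bins match cells by this order, and the lineages in a bin can still differ in maturation.

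Each of the AND and OT-II mice carried 1 transgenic T cell receptor (TCR) specific for MHC class II, whereas the TCR of F5 and of OT-I mice is specific for MHC class I. AND and F5 mice were in addition Rag1-/-, so no receptor other than the transgenic one could be assembled in them. MHCI-/- mice lacked B2m and MHCII-/- mice lacked H2-Ab1, and both kept diverse TCRs. A sort for CD5+TCRβ+ cells was applied to thymi of MHCI-/-, MHCII-/- and 3 B6 mice, and to none of the other 2 B6 mice or the transgenic mice. OT-I and OT-II came only from the last of 3 experiments, which held no other lineage-restricted mice, so this family of genotypes and that experiment cannot be told apart. The deletions were visible in the cells. B2m RNA was at 46.6 and 48.9 CPM (UMI counts scaled to a library of 1000000) in MHCI-/- mice against 404 to 1259 in the rest, and the I-A/I-E antibody was at 2.22 and 2.24 per 10000 antibody counts in MHCII-/- mice against 23.9 to 124.

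A count is a unique molecular identifier (UMI), 1 molecule captured from 1 cell. Lanes held 9893333 to 43303999 RNA UMIs and 4484116 to 34762051 antibody UMIs, and 69227 cells were kept. The 30982 cells on the way from signaled CD4+CD8+ double positive (DP) to mature single positive (SP) cells were placed in order by diffusion pseudotime, with all 7 receptors left out of the genes used, and divided into 5 bins of equal cell number, bin 1 the least and bin 5 the most mature. They included cluster 2, with 3953 cells, 2.25% of them wild-type, and with Trdc among its leading genes. Cluster 17, with 1793 cells, 0.223% of them wild-type, was included too. The study had removed gamma-delta-like cells and outlier cells specific to CD8-fated transgenic mice from its own course. Alternatives without clusters that held under 5% wild-type cells leave out both clusters. UMIs were summed per mouse and bin, with 75 to 1119 cells and 290768 to 6353510 RNA UMIs in each sum. RNA is given in CPM of such a sum and antibodies per 10000 antibody UMIs. Depth per cell was lowest in 4 mice, with lane medians of 1519 and 1579 UMIs in B6 replicate 5, 2150 in OT-II replicate 2, 2880 and 3483 in B6 replicate 4 and 3193 in OT-I replicate 2. In the lane of AND replicate 2 only 42.1% of barcodes passed, with a median of 1106 antibody UMIs. A difference was called at an adjusted p under 0.05, by edgeR's quasi-likelihood test over mice with Benjamini-Hochberg adjustment across all genes or antibodies of the comparison. The log2 values of these fits used TMM scaling of the libraries and the CPM did not, so the 2 can differ in size and sign.

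Receptors of the common gamma chain family bind interleukins through a chain specific to each and signal through a chain that all of them share, which passes the signal to JAK1, JAK3 and STAT factors. IL-7, read by the pair of Il7r and Il2rg, is needed for the survival of early thymocytes and again of SP cells, while DP cells in between switch its receptor off. IL-6 binds Il6ra, which does not signal by itself, and the complex recruits Il6st, known as gp130, the signaling chain of the whole IL-6 family.

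The receptors differed widely in how much RNA was captured, which sets the precision of what follows. Il2rg gave 89385 UMIs, in 64.4% of cells, and Il21r gave 70926 UMIs in 53.6% of cells. Il7r had 27770 UMIs in 17% of cells, Il6st 24032 in 26.5% and Il4ra 16487 in 19.7%. Il6ra, with 7474 UMIs in 8.0% of cells, and Il2rb, with 4504 in 4.36%, were the sparsest.

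In GRCm38, Il7r (ENSMUSG00000003882) lies on the minus strand at chr15:9505788-9530176, and Il2rb (ENSMUSG00000068227) on the same strand at chr15:78479256-78495271. Il2rg (ENSMUSG00000031304), on the minus strand at chrX:101264378-101268255, overlaps the gene Gm20489 on its own strand, so reads there could be divided between both. Il4ra (ENSMUSG00000030748) and Il21r (ENSMUSG00000030745) are neighbors on the plus strand, at chr7:125552120-125579474 and chr7:125603429-125633570. Il6ra (ENSMUSG00000027947) is on the minus strand at chr3:89864059-89913196 and Il6st (ENSMUSG00000021756) on the plus strand at chr13:112464070-112510086. Antisense genes overlap Il4ra (Gm44876) and Il6ra (Gm42809).

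The bases just upstream of the RefSeq start are shown for the receptor whose RNA rose first, for the shared chain, for the IL-6 receptor chain that separated the lineages, and for the IL-21 receptor, which fell. Each is 5′ to 3′ on the strand of its gene in GRCm38.p6, and capitals mark a match on either strand to the letters TTCNNNGAA, as bound by STAT factors, TGTGGT, as bound by RUNX factors, or GGGTG, as bound by KLF factors. For Il7r a stretch of 29 bases at chr15:9530000-9530028 is shown, inside an annotated exon of Il7r, whose match begins 142 bases before the start. The windows of 250 bases are at chrX:101268256-101268505 for Il2rg, chr3:89913197-89913446 for Il6ra and chr7:125603179-125603428 for Il21r.
Il7r: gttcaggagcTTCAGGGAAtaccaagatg
Il2rg: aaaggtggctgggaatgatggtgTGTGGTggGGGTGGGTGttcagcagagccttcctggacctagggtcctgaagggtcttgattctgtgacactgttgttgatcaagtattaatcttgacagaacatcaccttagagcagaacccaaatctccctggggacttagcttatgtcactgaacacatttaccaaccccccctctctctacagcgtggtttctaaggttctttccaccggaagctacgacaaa
Il6ra: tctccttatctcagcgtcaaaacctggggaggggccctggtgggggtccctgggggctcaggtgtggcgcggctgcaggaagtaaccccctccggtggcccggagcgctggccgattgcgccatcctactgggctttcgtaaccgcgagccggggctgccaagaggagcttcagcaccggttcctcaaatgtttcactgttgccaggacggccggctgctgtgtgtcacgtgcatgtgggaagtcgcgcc
Il21r: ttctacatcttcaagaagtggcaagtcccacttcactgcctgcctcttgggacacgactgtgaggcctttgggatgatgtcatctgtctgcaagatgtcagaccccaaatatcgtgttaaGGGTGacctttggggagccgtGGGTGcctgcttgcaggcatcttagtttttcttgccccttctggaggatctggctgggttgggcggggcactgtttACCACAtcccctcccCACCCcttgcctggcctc

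Il7r held 1 STAT match in its 250 bases and Il2rg 1 RUNX and 2 KLF matches that overlap each other. Il21r held 1 RUNX and 3 KLF matches, Il4ra 4 KLF matches, Il6st 2 KLF matches and Il6ra none of the 3 motifs. Of 32851 upstream windows of this length, 7.02% held the STAT letters, 14% the RUNX letters and 52.0% the KLF letters. A match describes letters only. Il2rb was not among these windows.

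Within a lineage, 26 of 70 steps of a receptor (the 4 steps between neighboring bins and the last against the first bin, in 2 lineages) were called. The 70 include the steps of Il2rb in CD4-fated mice, where its counts did not pass the filter and no test was made. From bin 1 to bin 5, all 6 receptors tested were called in CD4-fated mice, and 6 of the 7 in CD8-fated mice. Of all genes tested in CD4-fated mice, 12.3%, 13.7%, 17.1% and 3.51% were called over the 4 neighboring steps in order and 42.9% in bin 5 against bin 1. In CD8-fated mice these shares were 8.19%, 11%, 19.2% and 7.95%, and 53.9%. The order of cells mattered here. It was corrected for differences between lanes, and without that correction it had a rank correlation of only 0.07 with the corrected order, against 0.74 for a score of maturation genes. Each lane held 1 mouse, so the correction also acts on differences between mice and genotypes. The median maturation rank of CD4-fated and CD8-fated mice was 35.1% and 41.5% in bin 2 and 41.3% and 45.9% in bin 3. Single mice ran from 26.8% to 57.6% in bin 3. In bins 1, 4 and 5 the medians were 27.8% and 28.4%, 70.4% and 70.9%, and 84.0% and 83.4%. Without the correction 6 steps were called, and several receptors changed in the opposite direction from bin 1 to bin 5.

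Il7r encodes the IL-7 receptor alpha chain, which also serves the cytokine TSLP. Its RNA was almost silent in bin 1 and rose steeply by bin 2. In CD4-fated mice the lowest, median and highest values were 0, 4.16 and 17.2 CPM in bin 1, then 38.3, 64.3 and 251 CPM in bin 2. In CD8-fated mice they were 0.414, 6.88 and 39.5 CPM in bin 1, then 1.75, 127 and 149 CPM in bin 2. Bins 1 and 2 did not overlap in CD4-fated mice, while in CD8-fated mice both F5 mice stayed among the bin 1 values. The log2 change from bin 1 to bin 2 was 4.90 ± 0.37 (SE, adjusted p = 8.69e-14, edgeR) in CD4-fated mice and 2.78 ± 0.44 (adjusted p = 6.69e-05, edgeR) in CD8-fated mice. In the order by maturation genes the steps were 1.23 (adjusted p = 4.08e-05) and 0.44 (adjusted p = 0.618), and without lane correction of the order the steps were 0.38 and -0.010 (adjusted p = 0.71 and 1.00).

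Wild-type mice reached their highest Il7r RNA in bin 3. The values were 296, 327, 369, 373 and 382 CPM there, against 2.66 to 21.4 CPM in bin 1, 150 to 221 CPM in bin 2, 141 to 220 CPM in bin 4 and 159 to 207 CPM in bin 5. All 5 mice were higher in bin 3 than any was in the other bins. MHCI-/- mice followed the same course, with 387 and 416 CPM in bin 3 and 185 and 189 CPM in bin 4. Over all CD4-fated mice the log2 change was 0.82 ± 0.17 from bin 2 to bin 3 (adjusted p = 0.000563, edgeR) and -0.60 ± 0.16 from bin 3 to bin 4 (adjusted p = 0.00625, edgeR), though both OT-II mice went up in the second step, from 114 to 135 CPM and from 53.8 to 105 CPM. The fall after bin 3 was not called on leaving out MHCI-/- replicate 1 (-0.49, adjusted p = 0.0877) or replicate 2 (-0.44, adjusted p = 0.112), or without lane correction (-0.28, adjusted p = 0.147). In the order by maturation genes the steps were 0.23 and 0.077, neither called (adjusted p = 0.795 and 0.837). The step from bin 2 to bin 3 was -0.19 without lane correction.

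CD8-fated mice had no such peak in common. OT-I mice were highest in bin 2, at 109 and 149 CPM, and MHCII-/- mice stood at 145 CPM in both mice in bin 2 and at 143 and 182 CPM in bin 3. F5 mice stayed at 1.75 to 8.32 CPM through bins 2 and 3. In bin 5 F5 replicate 1 reached 94.4 CPM, inside the range of the other CD8-fated mice, and F5 replicate 2 only 8.28 CPM. None of the 3 changes between neighboring bins from bin 2 onwards passed the test in CD8-fated mice, with log2 values of 0.09, -0.48 and 0.87. The last of them was called without F5 replicate 1 (0.70, adjusted p = 0.0384), without clusters that held under 5% wild-type cells (0.68, adjusted p = 0.0453) and without the filter on low counts, where the second was called too.

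From bin 1 to bin 5 Il7r RNA rose by 5.45 ± 0.35 (log2, SE, adjusted p = 2.51e-17, edgeR) in CD4-fated mice and by 3.26 ± 0.43 (adjusted p = 1.47e-07, edgeR) in CD8-fated mice. The rise differed between the lineages by 2.22 ± 0.84, which did not pass the test (adjusted p = 0.0768, edgeR). In the order by maturation genes these rises were 1.32 and 1.01, both called, and without lane correction of the order the values were -0.08 and -0.64.

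**Figure D1:**
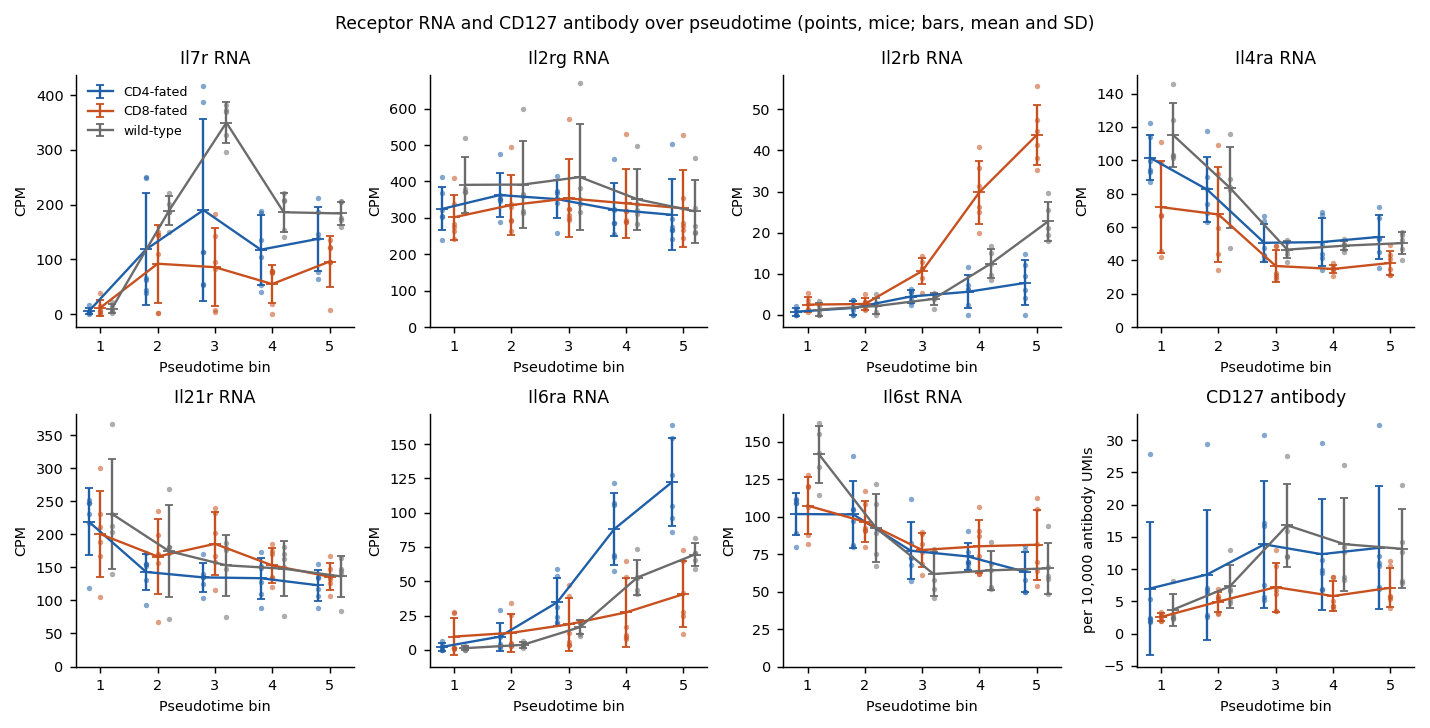
Each panel plots 1 receptor, with CPM of RNA (or CD127 antibody per 10000 antibody UMIs) against pseudotime bin. Points are mice, lines join the means of 6 CD4-fated, 6 CD8-fated and 5 wild-type mice and bars are SDs. Il7r rises from bin 1 to bin 2 in each group, Il6ra climbs highest in CD4-fated mice, and Il2rb climbs highest in CD8-fated mice, to between 35.2 and 55.6 CPM in bin 5.

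Between the lineages, 8 of the 35 tests of a receptor in a bin were called, none in bins 1 and 2, 1 in bin 3, 4 in bin 4 and 3 in bin 5. Of all genes tested, the share called was 0% in bin 1, 0.294% in bin 2, 3.92% in bin 3, 7.8% in bin 4 and 10.5% in bin 5. In 6 of the 35, Il7r, Il2rb and Il6ra in bin 1, Il2rb and Il6ra in bin 2 and Il2rb in bin 3, counts did not pass the filter on low values and no test was made. Markers of other cells moved with lineage as well. Summed over 7 regulatory T cell markers, CD4-fated mice held 139 to 609 CPM in bin 4 and CD8-fated mice 93.2 to 215 CPM, and 8 gamma-delta T cell markers summed to medians of 76.6 CPM and 337 CPM. In bin 1 the gamma-delta medians were 141 CPM in CD4-fated, 497 CPM in CD8-fated and 40.4 CPM in wild-type mice. Their part in the differences was not tested.

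Il7r was called in bin 4. CD4-fated mice had 40.0, 120 and 189 CPM (lowest, median, highest) and CD8-fated mice 0.587, 76.0 and 79.3 CPM. The 2 AND mice, at 40.0 and 53.2 CPM, lay inside the range of CD8-fated mice, and the other 4 CD4-fated mice, at 105 CPM and above, lay over it. The log2 difference was 1.29 ± 0.30 (SE, adjusted p = 0.0129, edgeR). It was called in 20 of 23 alternative analyses, and not with DESeq2 (1.40, adjusted p = 0.0525), without the family of genotypes in the fit (1.10, adjusted p = 0.421) or in an order corrected for the experiment and not the lane (1.07, adjusted p = 0.132).

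In bin 3 the Il7r difference was 1.45 ± 0.40 and missed the threshold (adjusted p = 0.0565, edgeR), with CD4-fated mice at 53.8, 114 and 416 CPM and CD8-fated mice at 3.83, 88.8 and 182 CPM. Leaving out any one of the 4 OT-I and OT-II mice brought it under the threshold, with adjusted p-values from 0.0184 to 0.0347. It was also called with same-numbered mice of a family as a replicate block (1.37, adjusted p = 0.0325), without the filter on low counts (1.43, adjusted p = 8.48e-13) and without lane correction of the order (1.17, adjusted p = 0.00336). In bin 2 the difference was 0.84 ± 0.53 (adjusted p = 0.777, edgeR) and in bin 5 it was 0.54 ± 0.26 (adjusted p = 0.207, edgeR), the groups overlapping in both. The bin 5 difference was called without F5 replicate 1 (0.83, adjusted p = 0.0375), without clusters that held under 5% wild-type cells (0.56, adjusted p = 0.0416), without the filter (0.52, adjusted p = 0.0300) and without lane correction (2.14, adjusted p = 0.00731), and the bin 2 difference without the filter (0.82, adjusted p = 0.00285).

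These averages covered genotypes that differed among themselves. In bin 2 the Il7r difference was 4.59 between AND and F5 (44.0 and 66.4 CPM against 1.75 and 2.82), 0.85 between MHCI-/- and MHCII-/- (248 and 251 CPM against 145 in both) and -1.33 between OT-II and OT-I (62.1 and 38.3 CPM against 109 and 149). The test that the 3 families share 1 difference gave an adjusted p of 8.20e-05 (edgeR), where 1.23% of genes were called in that bin. In bin 3 the values were 3.92, 1.38 and 0.01 (adjusted p = 0.0139, edgeR, 0.77% of genes called). By bin 5 they were 0.49, 0.65 and 0.45 (adjusted p = 1.00, edgeR). F5 and AND lack Rag1, MHCI-/- and MHCII-/- were sorted, and OT mice were the lineage-restricted mice of 1 experiment, so genotype, sort and experiment cannot be told apart in these contrasts.

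The CD127 antibody measured the same receptor on the surface. CD4-fated mice bound 1.87, 2.36 and 27.8 per 10000 (lowest, median, highest) in bin 1 and 6.85, 10.7 and 32.3 in bin 5, and CD8-fated mice 1.87, 2.61 and 3.40 in bin 1 and 3.91, 5.74 and 11.3 in bin 5. The bins did not overlap in CD8-fated mice, and in CD4-fated mice AND replicate 2, the lane with few antibody counts, was the one mouse that overlapped, at 27.8 to 32.3 in every bin. From bin 1 to bin 5 CD127 rose by 1.56 ± 0.29 (log2, SE, adjusted p = 9.63e-05, edgeR) in CD4-fated mice, where 38.7% of antibodies were called, and by 1.13 ± 0.24 (adjusted p = 0.000280, edgeR) in CD8-fated mice, where 59.5% were called.

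As with RNA, wild-type mice bound most CD127 in bin 3, at 11.8, 12, 15.9, 16.7 and 27.6 per 10000, against 2.32 to 8.14 in bin 1 and 7.88 to 23.0 in bin 5. Each of the 5 mice was higher in bin 3 than in bin 5. F5 mice, whose Il7r RNA stayed near that of bin 1, bound 3.00 and 3.21 in bin 2 and 3.51 and 3.44 in bin 3. OT-I mice were at 5.38 and 6.95 in bin 2, and OT-II mice at 2.64 and 2.89 in the same bin, the same order as in RNA.

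CD127 differed between the lineages in bin 4, by 0.85 ± 0.19 (log2, SE, adjusted p = 0.00581, edgeR), with CD4-fated mice at 6.76, 9.63 and 29.5 and CD8-fated mice at 3.74, 4.67 and 8.84 per 10000. The groups overlapped, since MHCII-/- mice, at 8.84 and 8.77, lay above both OT-II mice, at 6.87 and 6.76. The former were sorted and the latter were not, and they came from different experiments. It was the one CD127 difference called among the 5 bins, in which 0%, 0%, 3.6%, 9.91% and 8.11% of antibodies were called. The call was lost when the total of the panel replaced TMM scaling (1.02, adjusted p = 0.129) and without the family in the fit (0.77, adjusted p = 0.182).

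**Figure D2:**
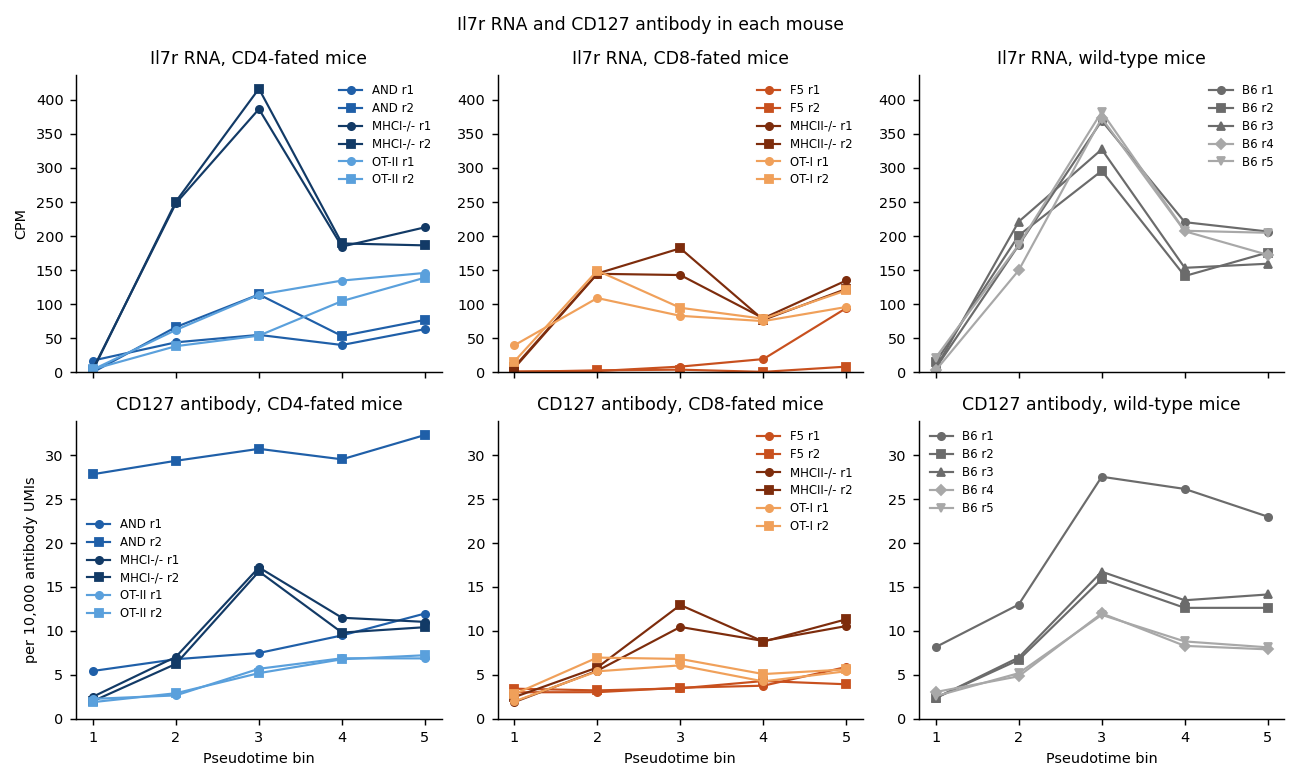
Il7r RNA in CPM (upper row) and CD127 antibody per 10000 antibody UMIs (lower row) against pseudotime bin, 1 line for each mouse, colored by genotype, in CD4-fated, CD8-fated and wild-type mice. RNA and antibody both peak in bin 3 in wild-type mice, F5 mice stay low in both through bin 3, and AND replicate 2 stands above all others in antibody at 27.8 to 32.3.

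By bin 2 Il7r RNA had covered a larger share of its rise than CD127. In bin 2 mice had reached on average 87.9% ± 42.4 of their bin 1 to bin 5 rise in Il7r RNA and 39.5% ± 39.7 of that in CD127 (SD, n = 17), a difference of 48.4 percentage points that was positive in 16 of 17 mice (exact permutation test over mice by sign flips, two-sided, p = 7.63e-05). In bin 3 the shares were 129% ± 70.1 and 107% ± 55.9, and the difference of 22.0 ± 41.4 percentage points was positive in 13 of 17 mice (the same exact test, p = 0.0453). Shares above 100% mean that bin 3 was over bin 5. The difference in bin 3 was 48.9 ± 22.9 in the 5 wild-type mice, all positive (exact p = 0.0625, the smallest that 5 mice allow), 28.8 ± 39.6 in the 6 CD4-fated mice (exact p = 0.156) and -7.16 ± 41.3 in the 6 CD8-fated mice (exact p = 0.656). In bin 4 the mean was -16.8 ± 42.2 (exact p = 0.0355), with F5 replicate 2, whose RNA rose by few CPM, at -171, and without that mouse it was -7.13 (exact p = 0.0710). Leaving out any 1 of 8 mice, that one included, brought the bin 4 result over the threshold, with exact p from 0.00290 to 0.0710 over all 17 cases. In the order by maturation genes the rise was near 0 in single mice. The bin 2 differences there ran from -300 to 8478 percentage points, with 13 of 17 positive (exact p = 0.0362), and the bin 3 difference did not pass the threshold (exact p = 0.192). The bin 3 result stood near the threshold in the main order too. With each mouse left out in turn the difference stayed between 17.9 and 27.6 percentage points, and the exact p stayed under 0.05 in 6 of 17 cases, with 0.0866 without AND replicate 2 and a highest p of 0.0872 without B6 replicate 3.

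Il2rg, the common gamma chain, changed little with stage or lineage. CD4-fated mice had 239, 314 and 412 CPM in bin 1 and 243, 271 and 503 CPM in bin 5, and CD8-fated mice 242, 279 and 409 CPM in bin 1 and 246, 281 and 528 CPM in bin 5. The groups overlapped almost wholly in every bin. No lineage difference was called, with log2 values between -0.04 and 0.13 and standard errors between 0.18 and 0.20 over the 5 bins. Within mice the fit gave a slight log2 rise from bin 1 to bin 5, of 0.26 ± 0.08 in CD4-fated mice (adjusted p = 0.0104, edgeR). In CD8-fated mice it was 0.35 ± 0.06 (adjusted p = 1.80e-05, edgeR). Mean CPM, which lacks the TMM scaling of the fit, went from 325 to 309 in CD4-fated mice and from 302 to 326 in CD8-fated mice. The fitted changes turned to -0.0031 and -0.25 without lane correction of the order. The CD4-fated rise was not called without OT-II replicate 2 (0.16, adjusted p = 0.125), in the order by maturation genes (0.095, adjusted p = 0.289) or without clusters that held under 5% wild-type cells (0.17, adjusted p = 0.134). The highest values of Il2rg lay with OT-I replicate 2, OT-II replicate 2 and B6 replicate 5, which held 367 to 670 CPM, against 239 to 412 CPM in all other mice and bins. These are 3 of the 4 mice of lowest depth, and the fourth, B6 replicate 4, held 262 to 371 CPM. The 3 mice were also those of lanes 16 to 19, while B6 replicate 4 was on lanes 12 and 13 of the same experiment. The part of depth or of this set of lanes was not tested.

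Il2rb encodes the beta chain that IL-2 and IL-15 share and that, with Il2rg, forms the receptor by which CD8 T cells and NKT cells read IL-15. Its RNA was highest late and in CD8-fated mice. In bin 5 these held 35.2, 43.1 and 55.6 CPM, CD4-fated mice 0, 7.77 and 14.9 CPM, and wild-type mice, whose bins hold both lineages, 18, 19.5, 21.0, 25.6 and 29.6 CPM. The lineages did not overlap, and every wild-type mouse lay between them. In bin 4 CD8-fated mice held 19.9, 28.8 and 40.8 CPM and CD4-fated mice 0, 6.21 and 11.6 CPM, again without overlap. Of all genes tested 2.47% did not overlap in bin 4 and 3.2% in bin 5.

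The log2 difference of Il2rb, CD4-fated minus CD8-fated, was -2.19 ± 0.29 in bin 4 (SE, adjusted p = 0.000149, edgeR) and -2.18 ± 0.25 in bin 5 (adjusted p = 2.33e-05, edgeR). The bin 4 call was made in all 23 alternative analyses, with -1.25 without lane correction, and the bin 5 call in 22, the exception being the order without lane correction (log2 -0.24, adjusted p = 0.731). OT-II replicate 2 had 0 UMIs in both bins, which allows up to 6.97 and 7.87 CPM at 3 counts. Within CD8-fated mice Il2rb rose by 1.91 from bin 2 to bin 3, by 1.72 from bin 3 to bin 4 and by 0.63 from bin 4 to bin 5 on the log2 scale (adjusted p = 0.000164, 1.78e-07 and 0.00890, edgeR). The first of these was 0.99 and not called in the order by maturation genes (adjusted p = 0.0541), and none was called without lane correction. From bin 1 to bin 5 it rose by 4.67 ± 0.27 (adjusted p = 2.53e-15, edgeR), where the order without lane correction gave -0.67. In CD4-fated mice, with medians of 0.480 (bin 1) and 7.77 CPM (bin 5), its counts did not pass the filter. The change from bin 1 to bin 5 was not called different between the lineages (-0.89 ± 1.26, adjusted p = 0.724, edgeR).

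Markers of NKT cells moved in the same direction in bin 5. Summed over 7 genes they held 2.62, 6.93 and 13 CPM in CD4-fated mice, 76.2, 114 and 236 CPM in CD8-fated mice and 63.6 to 78.1 CPM in wild-type mice. In bin 4 the sums were 2.44, 6.37 and 41.8 CPM and 17.3, 26.7 and 50.6 CPM. Their part in the Il2rb difference was not tested. The CD122 antibody, which binds the Il2rb protein, was higher in CD8-fated mice in bin 5, by 0.80 ± 0.17 (CD4-fated minus CD8-fated log2 -0.80, adjusted p = 0.00202, edgeR). CD4-fated mice bound 2.39, 2.74 and 11.2 per 10000 and CD8-fated mice 4.40, 5.36 and 7.38, so that the highest CD4-fated mouse lay above all CD8-fated mice. In bin 4 the difference was -0.48 (adjusted p = 0.0501, edgeR), and it was called on leaving out any 1 of 6 mice. With the panel total as library size the bin 5 call was lost (-0.53, adjusted p = 0.468).

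The CD25 antibody, against the IL-2 receptor alpha chain, gave one call, 0.83 ± 0.23 higher in CD4-fated mice in bin 4 (log2, SE, adjusted p = 0.0320, edgeR), with values of 1.76, 3.48 and 5.12 against 1.45, 1.67 and 1.77 per 10000. It was called in 4 of 16 alternative analyses, not in the one with the replicate block (0.79, adjusted p = 0.0816), and the bin 5 difference was called on leaving out any 1 of 4 mice. CD25 marks regulatory T cells, and the part of their higher marker RNA in CD4-fated mice was not tested.

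Il4ra is the chain that binds IL-4 and, with another partner, IL-13. Its RNA was highest at the start and lower later. CD4-fated mice had 87.0, 96.9 and 122.6 CPM in bin 1, 63.1, 78.4 and 117 CPM in bin 2 and 40.3, 45.2 and 66.5 CPM in bin 3, and in CD8-fated mice the median went from 67.2 CPM through 63.3 to 31.9 CPM. Bins 1 and 3 did not overlap in CD4-fated mice. The log2 change from bin 2 to bin 3 was -0.60 ± 0.13 in CD4-fated (adjusted p = 0.000495, edgeR) and -0.81 ± 0.11 in CD8-fated mice (adjusted p = 1.06e-05, edgeR), and over the whole course -0.53 ± 0.12 and -0.56 ± 0.11 (adjusted p = 0.000388 and 0.000130, edgeR), the latter 0.03 and the former -0.32 without lane correction of the order, neither called (adjusted p = 0.967 and 0.235). In the order by maturation genes the steps from bin 2 to bin 3 were -0.069 and -0.15, neither called (adjusted p = 0.965 and 0.844), and without lane correction they were 0.094 and 0.11.

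Il4ra was slightly higher in CD4-fated mice in bins 4 and 5. The log2 difference was 0.51 ± 0.14 in bin 4 (SE, adjusted p = 0.0348, edgeR), with CD4-fated mice at 34.6, 47.0 and 68.9 CPM and CD8-fated mice at 30.9, 35 and 38.5 CPM. In bin 5 it was 0.49 ± 0.15 (adjusted p = 0.0426, edgeR), with 35.2, 53.3 and 72.3 CPM against 31.5, 37.7 and 49.5 CPM. The groups overlapped in both bins. The calls stood close to the threshold and were made in 11 and 7 of 23 alternative analyses, lost among others on leaving out either OT-II mouse (adjusted p from 0.0504 to 0.110). In bin 2 the families differed (0.27, -0.43 and 1.31 for AND minus F5, MHCI-/- minus MHCII-/- and OT-II minus OT-I, adjusted p = 0.0430, edgeR), with OT-II mice at 117 and 83.0 CPM and OT-I mice at 43.6 and 34.2 CPM.

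Il21r, the IL-21 receptor, was plentiful and fell with maturation. In bin 1 CD4-fated mice held 119, 239 and 253 CPM, CD8-fated mice 105, 199.7 and 300.1 CPM and wild-type mice 141 to 367 CPM. In bin 5 they held 89.1, 125 and 155 CPM, 106, 134 and 167 CPM, and 84.3 to 165 CPM. The bins overlapped across mice, and the fall was seen within mice. In CD4-fated mice it was -0.55 ± 0.10 from bin 1 to bin 2 (log2, SE, adjusted p = 0.000125, edgeR), and -0.42 ± 0.10 from bin 1 to bin 5 (adjusted p = 0.000588, edgeR). From bin 1 to bin 5 it came to -0.28 ± 0.10 in CD8-fated mice (adjusted p = 0.0199, edgeR). The CD4-fated value from bin 1 to bin 5 was 0.26 without lane correction of the order. The first step was 0.19 without that correction and -0.36 in the order by maturation genes. The CD8-fated call was lost without MHCII-/- replicate 2 (-0.17, adjusted p = 0.214), F5 replicate 2 (-0.25, adjusted p = 0.0583) or OT-I replicate 1 (-0.23, adjusted p = 0.109), and without lane correction (-0.12, adjusted p = 0.646). The lineages were not called different in any bin, the largest difference being -0.38 ± 0.15 in bin 3 (adjusted p = 0.198, edgeR), which was called without OT-II replicate 1 (-0.51, adjusted p = 0.0442) or OT-I replicate 2 (-0.46, adjusted p = 0.0452).

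Il6ra, the chain that binds IL-6, was called in bins 3, 4 and 5, more bins than any other receptor, though Il2rb was tested only in bins 4 and 5. In bin 5 CD4-fated mice held 85.7, 116 and 164 CPM, CD8-fated mice 11.6, 34.5 and 73.0 CPM and wild-type mice 58.7, 65.3, 70.5, 70.8 and 81.8 CPM. The lineages did not overlap, while the wild-type values fell at the upper edge of the CD8-fated range and below all CD4-fated mice. In bin 4 CD4-fated mice held 57.4, 87.5 and 122 CPM and CD8-fated mice 8.21, 13.9 and 64.8 CPM, where 1 OT-I mouse, at 64.8 CPM, lay inside the range of the other group and the other OT-I mouse, at 53.4 CPM, just below it. In bin 3 the values were 18.9, 27.6 and 59.0 CPM and 3.29, 8.92 and 47.1 CPM.

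The log2 difference of Il6ra was 1.39 ± 0.30 in bin 3 (SE, adjusted p = 0.0135, edgeR), 2.08 ± 0.26 in bin 4 (adjusted p = 8.74e-05, edgeR) and 1.71 ± 0.18 in bin 5 (adjusted p = 1.08e-05, edgeR). The bin 5 call was made in all 23 alternative analyses, with 3.57 without lane correction of the order. Without the family in the fit bin 4 just missed (log2 1.71, adjusted p = 0.0504), and bin 3 was lost there (0.90, adjusted p = 0.71), in the order corrected for the experiment (0.96, adjusted p = 0.501) and without clusters that held under 5% wild-type cells (1.31, adjusted p = 0.106).

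For Il6ra the families differed in bins 3 and 4, in size and not in direction. AND minus F5, MHCI-/- minus MHCII-/- and OT-II minus OT-I gave 1.61, 2.71 and 0.37 in bin 3 (adjusted p = 0.0492, edgeR) and 2.68, 2.84 and 0.97 in bin 4 (adjusted p = 0.0390, edgeR, 0.623% of genes called), and 2.16, 1.81 and 1.26 in bin 5 (adjusted p = 0.833, edgeR, 0.324% of genes called). OT-I mice stood out from the start, with 27.4 and 26.6 CPM of Il6ra in bin 1, where the other 15 mice had at most 6.59 CPM.

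Along the course Il6ra rose by 5.66 ± 0.25 in CD4-fated mice (log2, SE, adjusted p = 1.45e-22, edgeR) and by 2.84 ± 0.37 in CD8-fated mice (adjusted p = 9.99e-08, edgeR), the latter -1.24 without lane correction of the order. In CD4-fated mice it rose from bin 2 to bin 3, from bin 3 to bin 4 and from bin 4 to bin 5 (2.42, 1.54 and 0.56, adjusted p = 9.82e-09, 7.19e-11 and 0.00106, edgeR). The first of these was 1.18 in the order by maturation genes, and without lane correction it was 0.24 and not called (adjusted p = 0.945), the last 0.90 and the whole change 1.87. In CD8-fated mice, of the 4 steps between neighboring bins the last one passed (0.89, adjusted p = 0.0463, edgeR). That call was lost on leaving out either F5 mouse or either MHCII-/- mouse (0.68 to 0.92, adjusted p from 0.0559 to 0.221) and without lane correction (0.52, adjusted p = 0.486). The step before it was called in the order by maturation genes (1.07, adjusted p = 0.00401), without the filter (0.75) and without OT-I replicate 1 (1.08). Il6ra was the one receptor whose whole change differed between the lineages, by 2.87 ± 0.65 (adjusted p = 0.00141, edgeR), where 11.5% of genes were called.

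Il6st, the gp130 chain, did not follow Il6ra. CD4-fated mice held 79.6, 109 and 112 CPM in bin 1 and 49.5, 60.9 and 80.2 CPM in bin 5, and CD8-fated mice 81.6, 113 and 128 CPM and 54.0, 75.9 and 113 CPM. Its RNA fell by 0.39 ± 0.11 in CD4-fated mice on the log2 scale (adjusted p = 0.00236, edgeR), while the change of -0.19 ± 0.11 in CD8-fated mice was not called (adjusted p = 0.134, edgeR), and the difference between these changes was not called either (-0.20 ± 0.16, adjusted p = 0.461, edgeR). The CD8-fated change was called without F5 replicate 1 (-0.31, adjusted p = 0.0121) and without clusters that held under 5% wild-type cells (-0.41, adjusted p = 0.00335), and the CD4-fated change was not called without lane correction (-0.25, adjusted p = 0.384). The lineage difference was -0.29 ± 0.12 in bin 5 (adjusted p = 0.135, edgeR) and between -0.10 and 0.06 in the bins before it. In wild-type mice Il6st went from 114 to 163 CPM in bin 1 to 45.6 to 78.1 CPM in bin 3, which did not overlap.

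**Figure D3:**
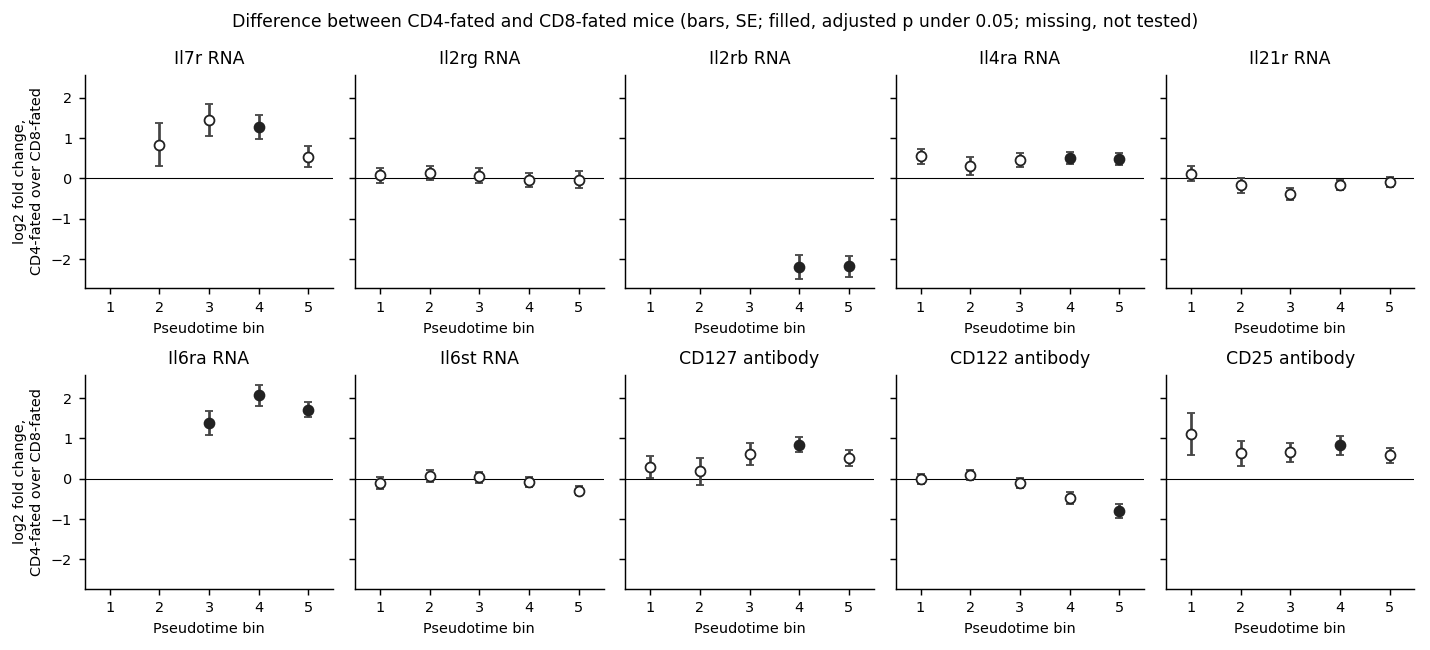
Log2 fold change of RNA, CD4-fated minus CD8-fated, for each receptor and bin, with bars of 1 SE from the edgeR fit on 6 against 6 mice. Filled points passed at an adjusted p under 0.05. Il6ra lies above 0 from bin 3 to bin 5, Il2rb lies at -2.19 and -2.18 in bins 4 and 5, and Il2rg stays between -0.04 and 0.13.

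Other genes of these pathways were read from 4 lists. Of 27 other cytokine receptor chains, 12 were tested in bin 5, 2 were higher in CD4-fated mice and 1 in CD8-fated mice, where 10.5% of all genes were called, with a median log2 difference of 0.21 against 0.00069 over all genes tested in that bin. The 2 were Tgfbr2, a TGF-beta receptor (0.53, adjusted p = 0.0141, edgeR, and 0.49 in bin 4), and Ifngr2, a chain of the interferon-gamma receptor (0.59, adjusted p = 0.0274, edgeR). The 1 was Il10rb, an IL-10 receptor chain (-0.63, adjusted p = 0.0315, edgeR).

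All 11 kinases and STAT factors were tested from bin 2 on, in bins where 0.294% to 10.5% of all genes were called. In bin 4 Stat4, which IL-12 activates, was higher in CD8-fated mice (22.3 against 52.0 CPM, log2 -1.14, adjusted p = 0.00188, edgeR). In bin 5 Stat5b, a factor downstream of the IL-7 and IL-2 receptors, was higher in CD4-fated mice (54.5 against 36.6 CPM, log2 0.60, adjusted p = 0.00925, edgeR). The list median was 0.15 in bin 4 and 0.14 in bin 5, against -0.01 and 0.00069 over all genes.

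Of 21 feedback and target genes, 16 were tested in bin 3, of which 2 were higher in CD8-fated mice, where 3.92% of all genes were called. Socs3, an inhibitor that cytokine signals induce and that binds gp130, averaged 2.02 CPM in the CD4-fated group and 12.6 CPM in the other (log2 -2.56 ± 0.35, adjusted p = 0.000418, edgeR). Pim2, a survival kinase, was higher in CD8-fated mice in bins 3, 4 and 5 (-0.92, -1.10 and -0.85, adjusted p = 0.0181, 0.0384 and 0.00715, edgeR). In bin 5 its relative Pim1 was higher in CD4-fated mice (0.51, adjusted p = 0.0205, edgeR), and Ptpn6, a phosphatase that restrains receptor signaling, in CD8-fated mice (-0.51, adjusted p = 0.0226, edgeR). Of 15 ligands at most 2 were abundant enough to be tested. Osm was higher in CD4-fated mice in bins 3 and 5 (1.32 and 0.94, adjusted p = 0.0298 and 0.00791, edgeR), and Clcf1 in CD8-fated mice in bin 5 (-0.85, adjusted p = 0.0109, edgeR). Both encode cytokines of the IL-6 family.

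Cells outside the maturation course, and wild-type cells within it, were grouped by clustering. Classes are named "-like" after their markers, clusters whose markers did not decide are given by number, and levels are descriptions over the 5 wild-type mice (mean ± SD) with no test, since classes were built on RNA of the same cells. Overlap between classes is that of mean ± SD and does not pair the classes of a mouse.

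Il7r RNA was highest in NKT-like cells, at 562 ± 225 CPM. This class held only 109 wild-type cells, 10 to 33 per mouse, and its values ran from 302 to 915 CPM. Next came 2 unnamed clusters, cluster 14, led by Ckb, Tesc and Izumo1r, at 377 ± 48.3 CPM, and cluster 9, led by Itm2a, Gpr65 and Gm14718, at 331 ± 54.6 CPM in 4 mice. The signaled DP-like class, at 163 ± 20.01 CPM, joined unlike clusters and is given by cluster from here on. Cluster 5, led by Cd5, Hivep3 and Egr1, held 10.6 ± 6.02 CPM, with CD4 antibody at 434 and CD8a at 570 per 10000. Cluster 6, led by Itm2a, Id2 and Gm43352 and with Cd40lg among its leading genes, held 325 ± 25.9 CPM, and its antibodies, CD4 at 620 and CD8a at 172, go against the name double positive. In cluster 2, 2 wild-type mice had at least 10 cells, 76 in all, with no Il7r UMI among them. Below cluster 6 were mature SP-like cells at 208 ± 22.8, cells with interferon genes at 176 ± 50.1, CD8 SP-like cells at 147 ± 25.7 and double negative (DN)-like cells at 128 CPM in 2 mice. Mean ± SD overlapped between neighbors in this order, except between cluster 6 and mature SP-like cells. In wild-type mice mature SP-like cells bound CD4 antibody at 605 to 1179 and CD8a at 15.8 to 99.9 per 10000. The class thus held mainly CD4 SP cells there, and it differs from CD8 SP-like cells in lineage as well. Cluster 3, led by Tuba4a, Tesc and Tdrp, held 126 ± 27.6 CPM. Regulatory T (Treg)-like cells held 87.3 ± 19.4 CPM, cells with negative selection genes 50.7 ± 15.6, cycling cells 36.0 ± 17 and quiescent DP-like cells 3.82 ± 3.81 CPM. An Il7r UMI was found in 46.2% of mature SP-like cells (median 4797 RNA UMIs) and in 0.653% of quiescent DP-like cells (median 2218), and in 21.2% and 0.309% after cells with at least 1500 UMIs were thinned to that number, which left out 21 and 3233 cells. The CD127 antibody was likewise highest in NKT-like cells, at 23.8 ± 5.73 per 10000, with cluster 14 at 19.6 ± 8.02, cluster 6 at 11.2 ± 4.11, cluster 5 at 3.79 ± 2.58, mature SP-like cells at 13.9 ± 6.17 and quiescent DP-like cells at 3.62 ± 2.22.

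Il2rb RNA was highest in NKT-like cells, at 232 ± 108 CPM. Treg-like cells held 58.6 ± 8.38 CPM, CD8 SP-like cells 37.5 ± 6.36 and cells with negative selection genes 34.2 ± 13.4 CPM, the last pair overlapping. Mature SP-like cells held 6.98 ± 2.39 CPM, clusters 5 and 6 held 1.95 ± 1.95 and 2.03 ± 2.14 CPM and quiescent DP-like cells 0.379 ± 0.819 CPM. The CD122 antibody was highest in the same NKT-like cells, at 10.2 ± 2.06 per 10000, then in CD8 SP-like cells at 5.63 ± 1.69 and Treg-like cells at 4.86 ± 1.02.

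Il6ra RNA was highest in mature SP-like cells, at 96.9 ± 15 CPM, and in cells with interferon genes, at 82.0 ± 32.5 CPM, which do not differ beyond their spread. The former were mainly CD4 SP cells by their antibodies. Myeloid-like cells, 12 to 68 per mouse, ran from 20.1 to 89.5 CPM. Treg-like cells held 42.6 ± 10.9 CPM, cluster 14 held 36.2 ± 11.7 and CD8 SP-like cells 28.2 ± 7.67 CPM, while cluster 6 held 6.96 ± 5.05, NKT-like cells 4.40 ± 4.52, quiescent DP-like cells 2.87 ± 3.62 and cluster 5 held 1.36 ± 1.42 CPM. Mean ± SD overlapped between neighbors among these last 4.

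Il21r and Il4ra were high in DP cells. Il21r was at 398 ± 142 CPM in quiescent DP-like cells, 267 ± 102 in cluster 5, 121 ± 38.9 in cluster 6, 142 ± 35.4 in mature SP-like and 63.3 ± 21.0 CPM in NKT-like cells. Il4ra ran from 93.0 to 235 CPM over the mice of cluster 21. It was at 118 ± 19.2 CPM in cluster 5, 101 ± 20.7 in quiescent DP-like, 69.2 ± 16.1 in cluster 6, 61.3 ± 5.93 in mature SP-like, 38.1 ± 5.37 in CD8 SP-like and 3.45 ± 2.33 CPM in DN-like cells. Mean ± SD of quiescent DP-like cells and cluster 5 overlapped in both. B6 replicate 5 was low in Il21r, at 157 CPM in quiescent DP-like cells against 399 to 521 CPM in the other mice. In mature SP-like cells it was at 79.4 CPM against 152 to 164 CPM.

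Il6st RNA was highest in cluster 21, led by Gm26917, Vamp1 and Malat1, at 183, 197 and 219 CPM in 3 mice. Cluster 11, led by Hltf, Ctsl and Cd8a, held 88.3 to 144 CPM. It was at 129 ± 20.2 CPM in cluster 5, 126 ± 26.0 in Treg-like cells and 101 ± 20.3 in cells with negative selection genes, which overlap, at 85.2 ± 27.3 in cluster 6 and at 11.6 ± 7.63 CPM in NKT-like cells. Il2rg was spread over all classes, from 506 ± 74.8 CPM in cluster 21, in 3 mice, to 71.7 ± 33.0 CPM in cluster 19. It was at 398 ± 99.1 and 378 ± 91.0 CPM in clusters 5 and 6, 317 ± 90.4 in mature SP-like, 271 ± 30.8 in quiescent DP-like and 133 ± 42.8 CPM in cycling cells.

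Wild-type mice hold both lineages in 1 thymus, so the branches can be set side by side within a mouse. In the late clusters of the CD4 branch, whose CD4 antibody was at 596 to 1125 and CD8a antibody at 18.2 to 85.6 per 10000, Il2rb was at 2.83 to 7.29 CPM over the 5 mice, and in those of the CD8 branch, with CD4 at 35.8 to 61.0 and CD8a at 694 to 821, it was at 29.1 to 43.7 CPM. Il6ra was at 70.5 to 89.5 CPM in the CD4 branch and 19.8 to 35.9 CPM in the CD8 branch, Il7r at 228 to 304 and 106 to 172 CPM, and Il4ra at 53.0 to 60.8 and 33.0 to 44.2 CPM. None of these 4 ranges overlapped between branches, as for 6.85% of genes with a mean of at least 10 CPM. Il2rg, at 268 to 499 and 269 to 500.2 CPM, and Il21r, at 77.8 to 160 and 79.2 to 175 CPM, overlapped almost wholly. CD127 was at 9.49 to 27.5 and 6.17 to 21.6 per 10000 and was higher in the CD4 branch of all 5 mice. The branches are not matched for stage. That of CD4 includes cluster 14, of median rank 0.570 in the order (0 first, 1 last) and with 377 CPM of Il7r, while its other clusters, 4 and 8, at ranks 0.827 and 0.782, held 195 and 219 CPM, and the CD8 clusters 18 and 12 lay at ranks 0.722 and 0.914 with 159 and 153 CPM. The branches came from clustering of the same cells and are given without a test.

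Over the 12 named classes of wild-type cells, 9 of them present in all 5 mice, the genes whose mean log2 CPM ran most like that of a receptor were Sema4a for Il7r (Pearson r = 0.92), Tex264 for Il2rg (0.93), Nt5e for Il2rb (0.92), 1110008P14Rik for Il4ra (0.97), Kif5b for Il21r (0.95), Tap1 for Il6ra (0.91) and Ubash3a for Il6st (0.94), out of 8076 genes compared. The next 2 for each were Spn and Rpl7a, Gramd1a and Gimap6, Eef1d and Gm10076, Arhgap4 and Jakmip1, Ntrk3 and Atp6ap2, Slfn1 and Fry, and Tnik and G0s2, in the same order, with r from 0.83 to 0.96. The classes come from the same lanes and differ in depth, and the signaled DP-like class entered whole, though it joined unlike clusters.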

How the data were processed

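Thymocytes of 17 mice were stained with a panel of 111 antibodies and loaded on 19 lanes of the 10x system, 2 of the wild-type mice taking up a pair of lanes each, whose counts were summed. The authors deposited raw UMI counts per gene or antibody and cell barcode, without normalization, made, per the processing notes, with Cell Ranger v3.1.0 and its STAR aligner on the mm10 reference (the file headers of 11 lanes name 3.0.2). The 7 receptors, the pathway lists and the marker lists were chosen with earlier results of these data known. Per the labels, mice of a genotype are separate animals. Sex and age come from the methods of the study.

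Of 85389 barcodes, 72054 passed filters after those of the study (at most 15% mitochondrial UMIs, at least 200 genes, 1000 to 10000 antibody UMIs and 70 antibodies), against 72042 cells that the study states. Doublets were scored against simulated doublets and 2827 called, at 0.8% per 1000 barcodes, leaving 69227 cells. At most 35 barcodes were shared by a pair of lanes. RNA was scaled to cell depth, log-transformed and clustered by the Leiden method (scanpy 1.11.5, leidenalg 0.10.2) at resolution 2 on 2000 variable genes, 30 principal components and 20 neighbors, without the 7 receptors or the pathway lists. The components were corrected by the Harmony procedure for experiment, with lanes 12 to 15 and lanes 16 to 19 of the last experiment as separate sets. The order corrected for the experiment used the same sets. Of 47 clusters, 33 were named from at least 3 detected markers. The naming and branch thresholds were set after seeing the data. The names and the order are rebuilt and need not match the study's.

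In 11 clusters, 30982 cells were ordered by diffusion pseudotime (20 principal components corrected for lane by the Harmony procedure, 30 neighbors, 10 components) and cut into 5 bins of equal size, leaving out 433 cells of lineage-restricted mice in clusters of the other lineage's branch. Counts were summed per mouse and bin with at least 10 cells. Tests used edgeR 4.0.16 (R 4.3.3) with TMM scaling, its filter on low counts and quasi-likelihood F tests, with the family of genotypes as covariate between lineages and the mouse as block within a lineage, Benjamini-Hochberg adjusted over all features. DESeq2 1.42.0 was an alternative. Limits for 0 UMIs were set at 3 counts and cover only counting error. Scripts were tested on simulated data. Receptors were all described, pathway genes were named where called, at most the 4 largest differences per list and bin with 1 gene not reported here, and the 3 genes most like each receptor were taken among those with a mean of at least 10 CPM, with a pseudocount of 1 before the logarithm. Alternatives covered the test, scaling, filter, covariate, replicate block, order, cells and each mouse left out. The order corrected for the experiment, the order by maturation genes for bin 2 and leaving mice out of the comparison of RNA with antibody, in bins 2, 3 and 4, were chosen after seeing the data.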

Additional observations from a re-analysis of the deposited data

Results flagged for a closer look

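Single mice stood apart from the rest of their group, with a gap to the next mouse that was large for the range of the group, in 17 of 120 groups of mice examined, where chance gives about 1 in 20. For Il7r RNA AND replicate 1 held 17.2 CPM in bin 1 (next 4.42) and F5 replicate 2 held 8.28 CPM in bin 5 (next 94.4). For Il2rg RNA all such values were high ones. OT-II replicate 2 held 462 CPM in bin 4 and 503 in bin 5, OT-I replicate 2 held 494, 570 and 531 CPM in bins 2, 3 and 4, and B6 replicate 5 held 599.8, 670 and 498 CPM in the same bins. For Il21r OT-II replicate 2 was low, at 119 CPM in bin 1. For CD127 AND replicate 2 was high at 27.8, 29.4, 29.5 and 32.3 per 10000 in bins 1, 2, 4 and 5, and B6 replicate 1 at 8.14 and 13 in bins 1 and 2.

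The difference between the lineages itself differed between families of genotypes for Il7r in bins 2 and 3 (adjusted p = 8.20e-05 and 0.0139, edgeR), for Il4ra in bin 2 (adjusted p = 0.0430, edgeR) and for Il6ra in bins 3 and 4 (adjusted p = 0.0492 and 0.0390, edgeR). The change of Il6ra from the first to the last bin differed between the lineages (adjusted p = 0.00141, edgeR).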

How the results depend on the processing

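Of the 35 lineage tests of receptors 8 were called, 13 without a filter on low counts, 3 without the family of genotypes and 5 in the order corrected for the experiment, which was chosen after seeing the data, and 6 to 9 with each mouse left out. Over all genes and bins 1871 calls were made, 3728 without the filter, 910 without the family, 3276 in the order without lane correction and 1139 to 2490 with each mouse left out, with 1187 without MHCI-/- replicate 2, 1218 without MHCII-/- replicate 1 and 1139 without MHCII-/- replicate 2. Of 15 antibody tests 3 were called, 0 with the panel total as library size, 1 without the family and 2 to 6 with each mouse left out, 6 without AND replicate 2. Of the 70 steps within a lineage, among which those of Il2rb in CD4-fated mice were not tested, 26 were called, 6 in the order without lane correction and 24 to 28 with each mouse left out. The cause was not tested.

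Same-numbered mice of a family deviated together with correlations of 0.35 for AND with F5, 0.03 for MHCI-/- with MHCII-/- and 0.81 for OT-II with OT-I, and the number marks a shared experiment for AND with F5, while the other families were each in 1 experiment. With these pairs as a replicate block 9 receptor tests, 3086 genes and 2 antibody tests were called.

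In the order without lane correction the Il4ra lineage difference was -0.034 in bin 4 and -0.11 in bin 5, and these changes within a lineage reversed. In CD4-fated mice they were Il21r from bin 1 to 2 (0.19), Il7r (-0.19) and Il4ra (0.094) from bin 2 to 3, and Il7r (-0.082), Il2rg (-0.0031) and Il21r (0.26) from bin 1 to 5. In CD8-fated mice they were Il7r from bin 1 to 2 (-0.010), Il2rb (-0.60) and Il4ra (0.11) from bin 2 to 3, and Il7r (-0.64), Il2rg (-0.25), Il2rb (-0.67), Il4ra (0.028) and Il6ra (-1.24) from bin 1 to 5. In the order by maturation genes Il7r from bin 3 to 4 in CD4-fated mice was 0.077.

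The difference of Il7r RNA and CD127 in bin 3 was 22.0 percentage points, 17.9 to 27.6 with each mouse left out, -16.8 in bin 4 (-7.13 there without F5 replicate 2) and 399 in the order by maturation genes (exact p = 0.192), where a rise near 0 in the denominator makes shares unstable. The share of mature SP-like cells with an Il7r UMI was 46.2%, and 21.2% at 1500 UMIs per cell.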
